A study of Drosophila melanogaster with 2 samples.

Results

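Genes that pattern the imaginal discs of Drosophila melanogaster were examined for binding of the nuclear receptor dsf. The 49 genes are a listed set, taken from 13945 protein-coding genes on the chromosome arms. The rule for the set uses no measured value, but the members were chosen with earlier results of these data known. Their shares beside those of all genes are therefore descriptions and not tests. They were split by role, from general knowledge of the genes, into 16 signals, receptors and feedback genes (6 ligands, 6 receptors and 4 feedback genes), called signalling members, and 33 selector transcription factors. All 49 were found in the annotation, 1 of them (Dl) under another symbol.

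Imaginal discs are the larval sacs of epithelium that form the adult wings, legs, eyes and other appendages. Secreted ligands of the Wnt, BMP, Hedgehog, Notch and EGFR pathways set up positions in the disc sheet, receptors on the receiving cells read them, and feedback genes induced by a pathway limit or extend its range. Selector genes encode transcription factors that read these signals and fix the identity of a compartment, an appendage or a segment of one. In wandering larvae the discs are large and patterned, but they are a small share of the animal.

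The binding data are ChIP-seq, in which DNA bound by a protein is pulled down with an antibody and sequenced. Whole wandering larvae of the third instar, of mixed sex, came from a transgenic strain (dsf-GFP) with eGFP fused to the C-terminus of dsf, and the antibody was against GFP. The samples formed 1 group of 2 biological replicates, numbered 3 and 4, from separate biosamples of the same line. A control experiment is named in the labels and was not analysed here, so a summit below is a position in a deposited list and no test against background was possible. Because whole animals were used, a site bound in few cells and a site bound weakly in many cells cannot be told apart. The 4 deposited lists on the dm6 genome build were a list for each replicate and a pooled list of 29999 regions each, and an IDR-thresholded list of 1731 regions, which are the 1731 strongest of the pooled list. IDR, the irreproducible discovery rate, is a measure of how alike replicates rank a region. Regions were ranked by the authors' deposited signal value, with rank 1 the strongest, and the files hold no read counts, so depth is unknown.

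About the same share of the 49 genes as of all genes had a summit nearby. In the gene and 10 kb either side, the share was larger among signalling members than among selectors, but not among the ligands. At promoters, taken as 1 kb either side of any transcription start site (TSS), 6 of 49 members (12.2%, exact 95% interval 4.63 to 24.8) had a thresholded summit, and so did 12.2% of all protein-coding genes (1695 of 13945). They were 3 feedback genes, aos, sty and nkd, and 3 selectors, sd, dac and C15. The order of the class shares at promoters was not stable. Without replicate 3 it was 1 of 16 signalling members (6.25%) and 3 of 33 selectors (9.09%). In the gene and 10 kb either side, 17 of 49 had a summit (34.7%, 21.7 to 49.6), against 37.4% of all genes (5212). By class this was 9 of 16 signalling members (56.2%, 29.9 to 80.2) and 8 of 33 selectors (24.2%, 11.1 to 42.3). The 9 were 1 of 6 ligands (16.7%), 5 of 6 receptors and 3 of 4 feedback genes. Inside the gene itself, 7 of 16 signalling members (43.8%, 19.8 to 70.1) and 1 of 33 selectors (3.03%, 0.0767 to 15.8) had a summit. Together this was 8 of 49 (16.3%, 7.32 to 29.7), against 5.26% of all genes (733). The members are longer than most genes. Among genes of 10 kb or longer, the shares inside were close, at 8 of 39 members (20.5%) and 19.0% of all. In the strongest 5000 pooled regions, 13 of 16 signalling members and 6 of 33 selectors (18.2%) had one inside, against 12.1% of all genes. The selector share was then the higher, but that 12.1% was not matched for gene length (median 15718 bp for selectors and 2166 bp for all genes). With replicate support within 100 bp, 1 of 49 members had a promoter summit (2.04%), against 7.07% of all genes. All intervals are exact (Clopper-Pearson), cover counting error over genes only, and give no test of the difference between the classes.

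**Figure D1:**
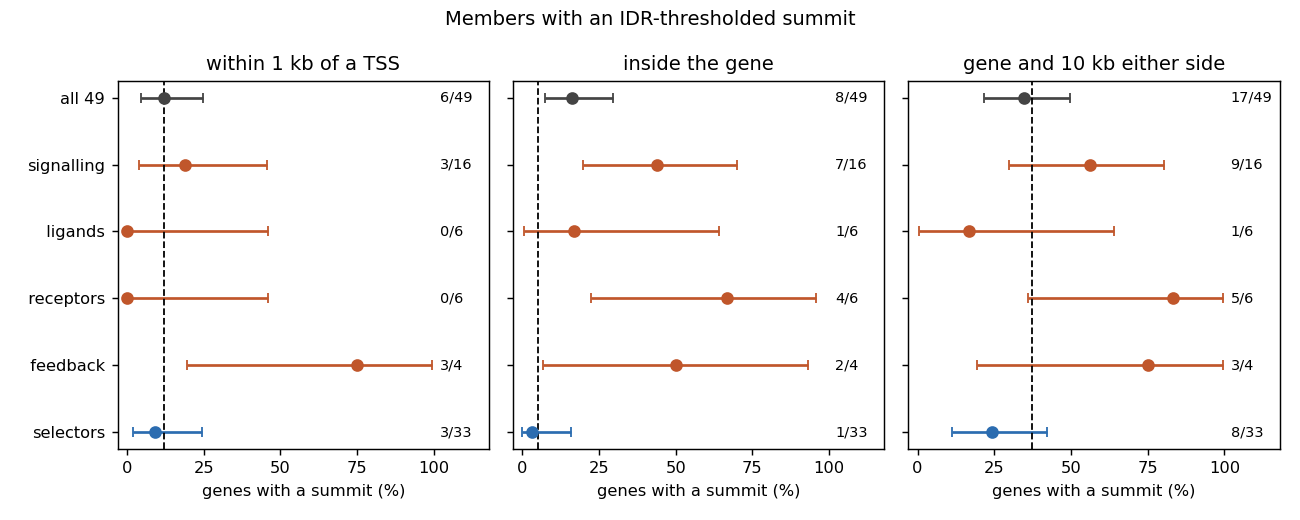
Share of members with an IDR-thresholded summit (x axis, percent) within 1 kb of a TSS (left), inside the gene (middle) and in the gene and 10 kb either side (right). Points are shares with exact 95% intervals, numbers are counts, orange is signalling, blue is selector, and the dashed line is the share among all protein-coding genes (12.2%, 5.26% and 37.4%). Inside the gene, signalling members (7 of 16) lie above the dashed line. Selectors (1 of 33) lie below it, with an interval (0.0767% to 15.8%) that includes it. The line makes no allowance for gene length, and 19.0% of genes of 10 kb or longer had a summit inside.

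The 101 bp around the promoter summits of 5 of the 6 members with one are shown, centred where the pooled signal peaked. They are read from the RefSeq release 6 genome (dm6), plus strand, 5′ to 3′, with the summit at the central base. Capitals mark TATAAA, on either strand, the only 1 of 6 searched words present in these windows.
aos, chr3L:16483830-16483930: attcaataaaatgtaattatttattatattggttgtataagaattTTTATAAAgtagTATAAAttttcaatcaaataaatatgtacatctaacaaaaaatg
sty, chr3L:3418879-3418979: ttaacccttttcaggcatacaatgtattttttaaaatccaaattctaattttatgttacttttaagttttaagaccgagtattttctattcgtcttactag
nkd, chr3L:19045552-19045652: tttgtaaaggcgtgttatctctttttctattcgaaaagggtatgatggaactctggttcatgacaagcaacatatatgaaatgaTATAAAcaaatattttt
dac, chr2L:16486503-16486603: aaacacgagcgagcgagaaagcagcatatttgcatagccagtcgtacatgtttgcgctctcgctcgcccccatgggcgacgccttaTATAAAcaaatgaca
C15, chr3R:21499685-21499785: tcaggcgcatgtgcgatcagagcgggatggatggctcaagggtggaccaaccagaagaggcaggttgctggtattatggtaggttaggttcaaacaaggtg
The aos window held 3 overlapping or adjacent matches within 7 bp of the summit, while those of nkd and dac held 1 each at 34 and 36 bp from it. The sty and C15 windows held none of the words. AT content was 85.1% at aos, 74.3% at sty and 70.3% at nkd, but 49.5% at dac and 46.5% at C15, beside a median of 68.3% over the 1708 thresholded summits of the chromosome arms. The promoter window of sd, which is not shown, held none of the words and was 63.4% AT.

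Among the feedback genes, aos encodes Argos, a secreted inhibitor of EGFR signalling. Its summit lay 230 bp upstream of the TSS, within an intron of CG33158, with a signal value of 91.0 and rank 1127 in the thresholded list. In replicate 3 the matching region had a signal value of 35.5 (rank 1253), and in replicate 4 it had 54.9 (rank 1240). It was the only member promoter summit within the strongest 1731 regions of both replicates. The gene sty encodes Sprouty, an intracellular inhibitor of receptor tyrosine kinase signalling, and its summit lay at -968 bp from the nearer of its 2 annotated TSS, inside the gene. Its signal value was 84.9 (rank 1315), with 31.8 (rank 1552) in replicate 3 and 45.6 (rank 1866) in replicate 4. The third gene, nkd, encodes Naked cuticle, an inhibitor that Wnt signalling induces. Its summit, 153 bp upstream of the TSS, had a signal value of 75.1 (rank 1658), with 31.8 (rank 1550) in replicate 3 and 41.6 (rank 2267) in replicate 4. For sty and nkd, replicate 3 placed the region within its strongest 1731 and replicate 4 did not.

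Among the selectors, sd encodes Scalloped, the TEAD-type DNA-binding partner of Vestigial and Yorkie. Its summit, in an intron at 241 bp downstream of one of 7 annotated TSS, was the strongest of the 6 with a signal value of 95.1 (rank 1031). Its signal value was 25.8 (rank 2369) in replicate 3 and 58.0 (rank 1101) in replicate 4. The summit at dac, which encodes Dachshund, a nuclear factor of intermediate leg and eye fate, lay 555 bp upstream with a signal value of 89.7 (rank 1165). It was stronger in replicate 3 (40.9, rank 952) than in replicate 4 (36.9, rank 2885) by rank. The gene C15 encodes a homeodomain protein of the distal tip of the leg, and its summit lay 251 bp upstream with a signal value of 86.7 (rank 1255). Its signal value was 25.2 (rank 2495) in replicate 3 and 63.2 (rank 914) in replicate 4. Each of these 3 selector summits was thus among the strongest 1731 of 1 replicate and outside them in the other.

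All 6 promoter summits lay in the weaker part of the list. Of the 1695 protein-coding genes with a thresholded promoter summit, 1076 (63.5%) had one ranked at or above that of sd. The median of the best promoter rank was 1210 over the 6 members and 791 over all such genes. No member promoter lay in the strongest 25% of the thresholded list, which held promoter summits of 3.35% of all genes.

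**Figure D2:**
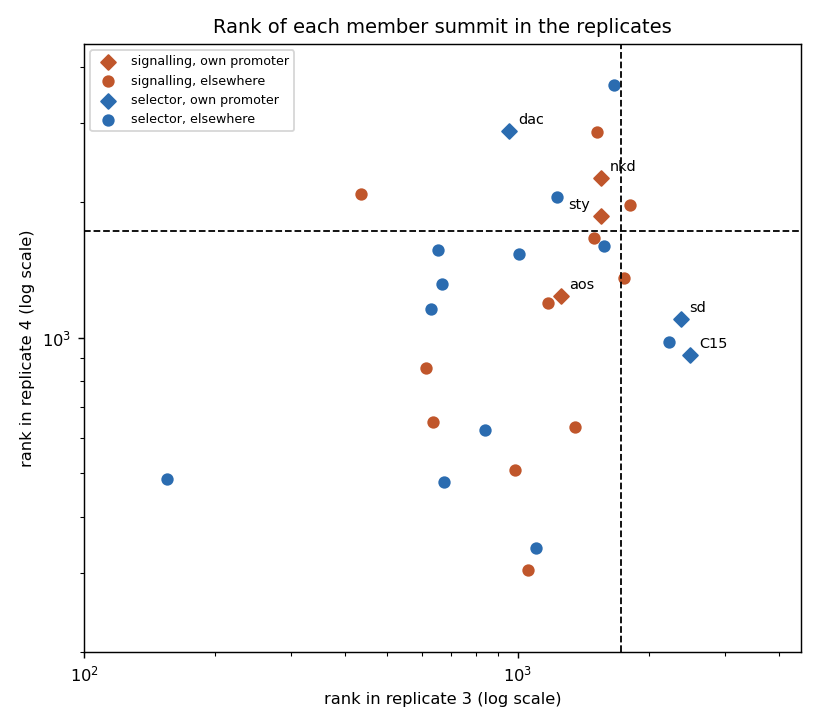
Rank of each thresholded summit near a member in replicate 3 (x axis, log scale) and replicate 4 (y axis, log scale), for the 29 of 30 summits matched within 100 bp in both. Diamonds are summits at the member's own promoter, circles are others, and dashed lines mark rank 1731. Only aos among the diamonds lies below both lines.

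The receptor genes N, fz, fz2 and Egfr and the ligand gene Dl had summits in introns and none at promoters. Regions from introns of 4 of these genes are shown as examples of signalling summits inside genes (RefSeq release 6 genome, dm6, plus strand, 5′ to 3′, 101 bp with the summit at the central base). Egfr, sty and nkd also had a summit inside the gene. Capitals mark a TATCGA near the summit and a TATAAA at the end of the window in N, and a GAGAGA in fz2, on either strand.
N, chrX:3162464-3162564: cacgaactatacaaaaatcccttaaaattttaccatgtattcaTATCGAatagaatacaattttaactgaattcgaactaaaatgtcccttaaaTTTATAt
fz, chr3L:14304026-14304126: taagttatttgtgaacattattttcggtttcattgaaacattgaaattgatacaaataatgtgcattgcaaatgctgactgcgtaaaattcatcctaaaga
fz2, chr3L:19194174-19194274: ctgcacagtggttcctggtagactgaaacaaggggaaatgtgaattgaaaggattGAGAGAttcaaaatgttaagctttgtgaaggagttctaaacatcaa
Dl, chr3R:19314381-19314481: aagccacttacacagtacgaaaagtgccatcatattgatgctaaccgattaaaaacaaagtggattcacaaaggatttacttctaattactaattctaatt
The TATCGA in N began 7 bp before the summit, and the GAGAGA in fz2 began 5 bp after it. The fz and Dl windows held none of the 6 searched words. The 4 windows were 61.4% to 75.2% AT.

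The receptor gene N encodes Notch, whose cleaved intracellular part acts in the nucleus. Its intronic summit, 27644 bp downstream of the only annotated TSS, had a signal value of 130.9 (rank 542), with 50.4 (rank 638) in replicate 3 and 74.2 (rank 650) in replicate 4. The ligand gene Dl encodes Delta, a transmembrane ligand of Notch. Its intronic summit, 11786 bp downstream of the TSS, had a signal value of 94.1 (rank 1053), with 36.5 (rank 1175) and 55.7 (rank 1196) in the replicates. The replicates placed both summits at close ranks, and each lay within the strongest 1731 of both.

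The Wnt receptor genes fz, which also acts in planar polarity, and fz2 each had a pair of intronic summits away from their promoters. In fz the stronger summit (29733 bp downstream of the TSS) had a signal value of 138.5 (rank 481), with 38.7 (rank 1052) in replicate 3 and 99.9 (rank 304) in replicate 4. The other, 90595 bp downstream, had 123.8 (rank 625), with 51.4 (rank 615) and 65.5 (rank 856). In fz2 the stronger summit had a signal value of 104.8 (rank 862), with 33.9 (rank 1353) and 75.0 (rank 632), and the other had 76.4 (rank 1605), with 29.5 (rank 1810) and 44.4 (rank 1972). The weaker fz2 summit was outside the strongest 1731 in both replicates. The promoters of these receptors ranked lower, with a best pooled promoter rank of 3747 for fz2, 8579 for N and 9147 for fz.

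Egfr encodes the epidermal growth factor receptor, and its intronic summit (chr2R:21551262-21551665) lay 4821 bp downstream of the nearer of 2 annotated TSS. It had a signal value of 92.5 (rank 1085) and 71.4 (rank 708) in replicate 4, but replicate 3 had no summit closer than 100 bp to it, and the match rests on replicate 4. The Hedgehog receptor gene ptc had a summit 5253 bp upstream of the gene, at -5253 bp from the TSS (chr2R:8644194-8644597), with a signal value of 80.9 (rank 1440), and ranked 1753 and 1361 in the replicates. A stronger summit in the ptc window (110.5, rank 784) lay 233 bp from a TSS of Acsl. Its signal value was 60.3 (rank 434) in replicate 3 and 43.2 (rank 2085) in replicate 4. In all, 5 of 6 receptors had a thresholded summit in the window, 4 of 6 inside the gene and 0 of 6 at a promoter, for which the exact upper limit is 45.9%. Among ligands the counts were 1, 1 and 0 of 6. The shares over all genes were 37.4%, 5.26% and 12.2%, and over genes of 10 kb or longer, nearer to the receptors' median length of 37455 bp, they were 44.0%, 19.0% and 17.1%.

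The feedback genes had further summits beyond those at their promoters. Downstream of sty lay 1 at 6164 bp from the gene's end with a signal value of 121.9 (rank 648), and 40.0 (rank 984) and 82.0 (rank 508) in the replicates. Another at 3085 bp had 85.1 (rank 1300), with 32.2 (rank 1498) and 48.0 (rank 1668). Both were within the strongest 1731 of both replicates, unlike the sty promoter summit. The intronic summit of nkd, 2690 bp downstream of the TSS, had 76.2 (rank 1610), with 32.0 (rank 1522) and 37.0 (rank 2872). The fourth feedback gene, rho, encodes Rhomboid, a membrane protease that releases EGFR ligands, and had no thresholded summit. Its promoter (31 bp downstream of the TSS) held the highest ranked pooled promoter region among the members without a thresholded one, with a signal value of 60.6 (rank 2465).

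**Figure D3:**
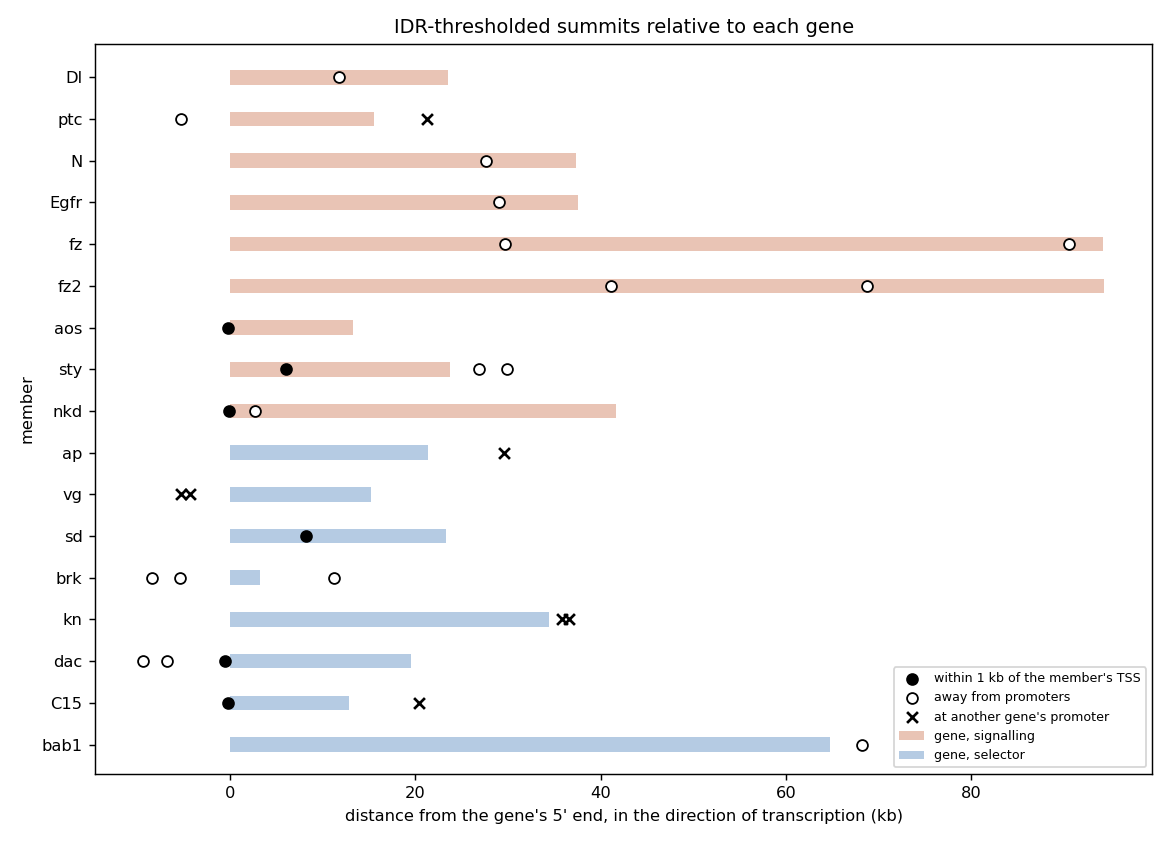
Thresholded summits relative to the 17 members that had one in the gene and 10 kb either side. The x axis is the distance from the gene's 5' end in kb, in the direction of transcription, bars are genes (orange signalling, blue selector), filled circles are summits within 1 kb of a TSS of the member, open circles lie away from coding promoters, and crosses lie within 1 kb of a TSS of another gene. Of 15 signalling summits, 11 are open circles and 1 is a cross, and of 15 selector summits, 6 are open circles and 6 are crosses.

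Some summits in selector windows lay at promoters of neighbouring genes, which was not particular to selectors. Leaving out summits only at promoters of other genes lowered the share of all genes with a window summit from 37.4% to 18.5%. Of 15 selector summits, 3 were at the member's own promoter, 6 were within 1 kb of a TSS of another coding gene only, and 6 were away from coding promoters, while of 15 signalling summits the counts were 3, 1 and 11. The summit near ap, the dorsal compartment selector of the wing, lay 61 bp from a TSS of Cndp2 (78.4, rank 1531). Both summits upstream of vg, the wing selector that acts with sd, lay within 1 kb of TSS of Nmda1, at -105 bp (94.4, rank 1047) and -79 bp (89.2, rank 1180). Both summits downstream of kn, which encodes a COE-type factor of the central wing, lay at TSS of BEAF-32, an insulator protein gene, at -37 bp (103.0, rank 888) and -71 bp (92.2, rank 1093). The strongest summit in any member window (174.1, rank 276) was in that of C15 and lay at -551 bp from a TSS of sp3. Its signal value was 92.1 (rank 155) in replicate 3 and 83.5 (rank 484) in replicate 4, the only member-window summit in the strongest 25% of the thresholded list.

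Leaving out summits only at promoters of other genes, 14 of 49 members kept one (28.6%, 16.6 to 43.3), against 18.5% of all genes under the same rule. Signalling members stayed at 9 of 16. Selectors fell from 8 of 33 (24.2%) to 5 of 33 (15.2%, 5.11 to 31.9), without ap, vg and kn, and the share of all genes also fell. The 5 were sd, dac, C15, brk and bab1.

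Of these, brk encodes Brinker, the repressor of BMP target genes, and had 3 summits in its window and none at its promoter. The strongest lay 5428 bp upstream, within an intron of CG1677 (chrX:7302309-7302712), with a signal value of 140.7 (rank 460), and 37.8 (rank 1098) and 96.1 (rank 341) in the replicates. The others had 83.0 (rank 1375), with ranks 1582 and 1603 in the replicates, and 75.3 (rank 1642), with ranks 1663 and 3647. Upstream of dac, 2 summits in introns of Tpr2 had signal values of 118.7 (rank 682) and 112.9 (rank 759), and ranked 840 and 622, and 630 and 1159, in replicates 3 and 4. Both were stronger than the dac promoter summit. The gene bab1 encodes a BTB-domain factor of the distal leg, and its only summit lay 3553 bp downstream of the gene in an intron of trio (134.1, rank 513, with ranks 674 and 478).

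Over all 30 summits near members, 10 were intronic in the member, 11 upstream and 9 downstream, and no summit was shared by 2 members' windows. Ranks ran from 276 to 1658 with a median of 1069. A coding TSS lay within 1 kb of 13 of 30 (43.3%), against 69.3% of the 1708 thresholded summits of the arms. These 2 shares were not matched for gene length (median 19487 bp for members and 2166 bp for all genes). The share matched within 100 bp among the strongest 1731 of both replicates was 56.7% (17 of 30) near members and 56.6% overall. Counting those matched in both, 24 of 30 were matched among the strongest of replicate 3, beside 73.8% overall. In replicate 4 it was 22 of 30, beside 77.6%.

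The members are long genes, which offer more sequence in which a summit can fall. The median length was 23635 bp for signalling members and 15718 bp for selectors, against 2166 bp for all protein-coding genes. Among genes of 10 kb or longer, 19.0% of all had a thresholded summit inside, against 7 of 14 signalling members (interval 23.0% to 77.0%) and 1 of 25 selectors (4.00%, 0.101 to 20.4), together 8 of 39 (20.5%). With flanks of 10 kb the shares at that length were 44.0% of all, 9 of 14 (64.3%, 35.1 to 87.2) and 7 of 25 (28.0%, 12.1 to 49.4), and at promoters they were 17.1% of all, 3 of 14 (21.4%) and 3 of 25 (12.0%).

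Per length of gene, signalling members held 9 summits in 509.6 kb, or 1.77 per 100 kb (exact Poisson 95% interval 0.808 to 3.35), and selectors held 1 in 758.9 kb, or 0.132 per 100 kb (0.00334 to 0.734). All protein-coding genes held 0.969 per 100 kb, and those of 10 kb or longer 0.826. The signalling density was 1.77 in the strongest 1731 regions of either replicate taken alone, while the selector density was 0.132 in replicate 3 and 0.264 in replicate 4. Receptors held 6 of the 9 signalling summits, at 2.04 per 100 kb (0.750 to 4.45). In the thresholded list the intervals of the 2 classes did not overlap, but in replicate 4 alone they did (0.808 to 3.35 for signalling members and 0.0319 to 0.952 for selectors), and the selector interval there included the 0.802 per 100 kb of genes of 10 kb or longer. With the 10 kb flanks included, the thresholded list held 1.81 summits per 100 kb for signalling members (1.01 to 2.98) and 1.07 for selectors (0.597 to 1.76), with intervals that overlapped and that both included the 1.41 of all gene windows. Several summits share a gene, so they are not independent, and the difference between the classes was not tested. Densities were chosen after the counts in the wider window were seen, so their intervals are descriptions only.

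**Figure D4:**
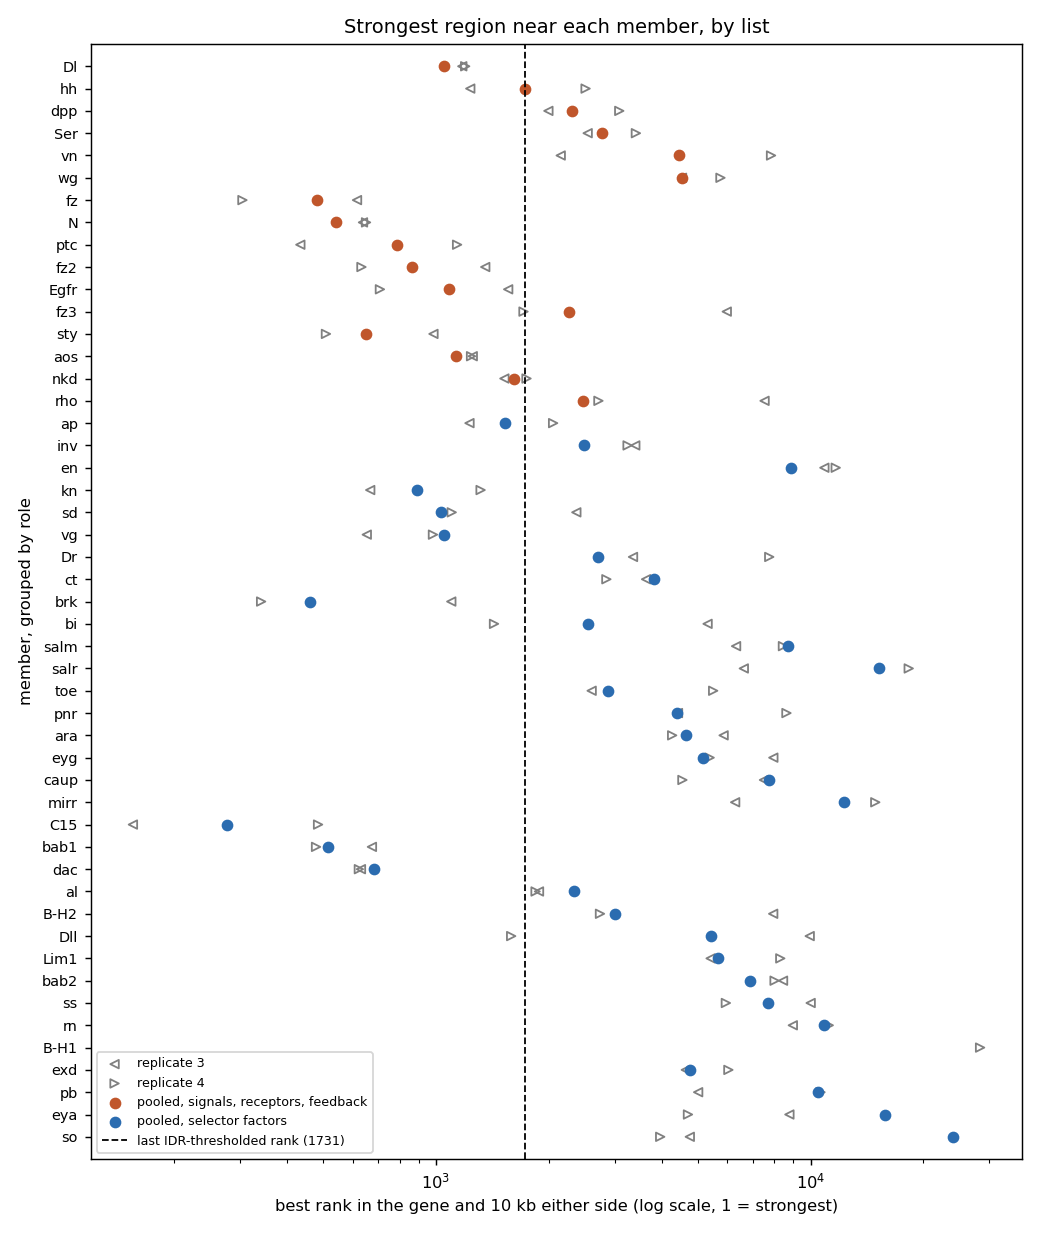
Best rank of any region in the gene and 10 kb either side (x axis, log scale, 1 is strongest) for each member, grouped by role. Filled circles are the pooled list (orange signalling, blue selector), triangles are replicates 3 and 4, and the dashed line is rank 1731. The medians of the pooled ranks are 1368 for signalling members and 4518 for selectors, and B-H1 has a region in replicate 4 only.

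The best rank in the full lists showed the same order of the classes. The median of the best pooled rank in the window was 1368 for signalling members, 4518 for selectors and 2356 for all genes with one. In replicate 3 alone these medians were 1438, 4886 and 2711, and in replicate 4 alone 1476, 4549 and 2214. At promoters, 38 of 49 members had any region of the pooled list within 1 kb (77.6%), background regions included, against 49.2% of all genes. This was 16 of 16 signalling members and 22 of 33 selectors. The best promoter ranks of members were low in the list, with a median of 8967 against 5149 for all genes with one.

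Among the 7 signalling members with no thresholded summit, 5 were ligands. The gene hh, which encodes Hedgehog, lay just outside the threshold, with a pooled region of signal value 73.4 (rank 1733) at 23728 bp from its TSS, at the outer edge of the downstream flank. The member summits just inside the threshold had 75.1 (nkd) and 75.3 (brk), and the next member outside was fz3 with 63.5 (rank 2269). The best region of hh ranked 1234 in replicate 3 and 2508 in replicate 4, the latter at another position, 13729 bp from the TSS. For dpp, the BMP ligand, the best pooled region lay 5306 bp downstream of a TSS with 62.9 (rank 2307), and ranked 1995 and 3085 in the replicates. Ser, the second Notch ligand, had rank 2778, vn, a neuregulin-like EGFR ligand, 4456, and wg, the Wnt ligand, 4542. The promoters of these ligands ranked lower still, from 9605 for dpp to 24186 for vn. The Wnt receptor gene fz3 had its best region at -2391 bp from a TSS, and it ranked 5975 in replicate 3 and 1712 in replicate 4.

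Among the 25 selectors with no thresholded summit, the best pooled window rank ran from 2334 to 24008, and B-H1 had no pooled region at all. The gene al, which encodes the distal leg factor Aristaless, came nearest, with 62.4 (rank 2334) at 4887 bp from its TSS and ranks 1883 and 1844 in the replicates. The compartment selectors inv and en had ranks 2480 and 8893, with replicate ranks of 3404 and 3247 for inv and 10889 and 11678 for en. Of the BMP target genes of the wing, bi had rank 2549, with 5310 in replicate 3 and 1428 in replicate 4, salm 8710 and salr 15258. The muscle segment homeobox gene Dr had rank 2713, and ct, a homeobox gene of the wing margin, 3820, at its promoter.

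None of the 6 genes of the notum, the back of the thorax, had a thresholded summit in the window (exact upper limit 45.9%, which includes the 37.4% of all genes). Their best pooled ranks were 2881 for toe and 5164 for its neighbour eyg, both Pax-type genes, 4396 for the GATA factor gene pnr, and 4640, 7728 and 12252 for ara, caup and mirr of the Iroquois complex. Of these, ara had its best region at its TSS, ranked 4271 in replicate 4, while replicate 3 ranked that promoter 20287. The Hox gene pb had rank 10450 and exd, the cofactor of Hox proteins, 4771.

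The eye determination genes eya and so had the weakest pooled windows of all members with a region, at ranks 15823 and 24008. In replicate 4 each had a promoter region, 4707 for eya at -94 bp and 3968 for so at -310 bp, and neither replicate 3 nor the pooled list had one within 1 kb of their TSS. The leg genes B-H2 (3009), Dll (5437), Lim1 (5660), bab2 (6884), ss (7696) and rn (10854) had better pooled ranks. B-H1 had a single region, at -8598 bp and rank 28372 in replicate 4. The 11 members with no pooled promoter region, all selectors, were salr, rn, caup, mirr, B-H1, B-H2, ss, Lim1, bab1, eya and so.

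The best promoter rank of single members differed widely between replicates. Dll, the distal limb selector, had a promoter region of rank 1587 in replicate 4 and 26980 in replicate 3, and brk had 1563 in replicate 3 and 8041 in replicate 4. These were regions at different positions, with summits at -102 and 161 bp from the TSS for Dll in replicates 4 and 3, and at -768 and -48 bp for brk in replicates 3 and 4. The signal value of the Dll region was 48.9 in replicate 4, and that of the other Dll region was 9.76 in replicate 3. Neither reached the thresholded list, where their promoters would have needed a pooled rank of 1731 and had 5437 and 3433. With the strongest 5000 pooled regions in place of the thresholded list, 12 of 49 members had a promoter region (24.5%, 13.3 to 38.9), against 24.3% of all genes. The members added were ptc (4852), fz2 (3747), rho (2465), ct (3820), brk (3433) and ara (4640). By class this was 6 of 16 signalling members and 6 of 33 selectors. The next promoters in rank were those of Egfr (5159), Dll (5437), Dr (5455) and fz3 (5949).

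**Figure D5:**
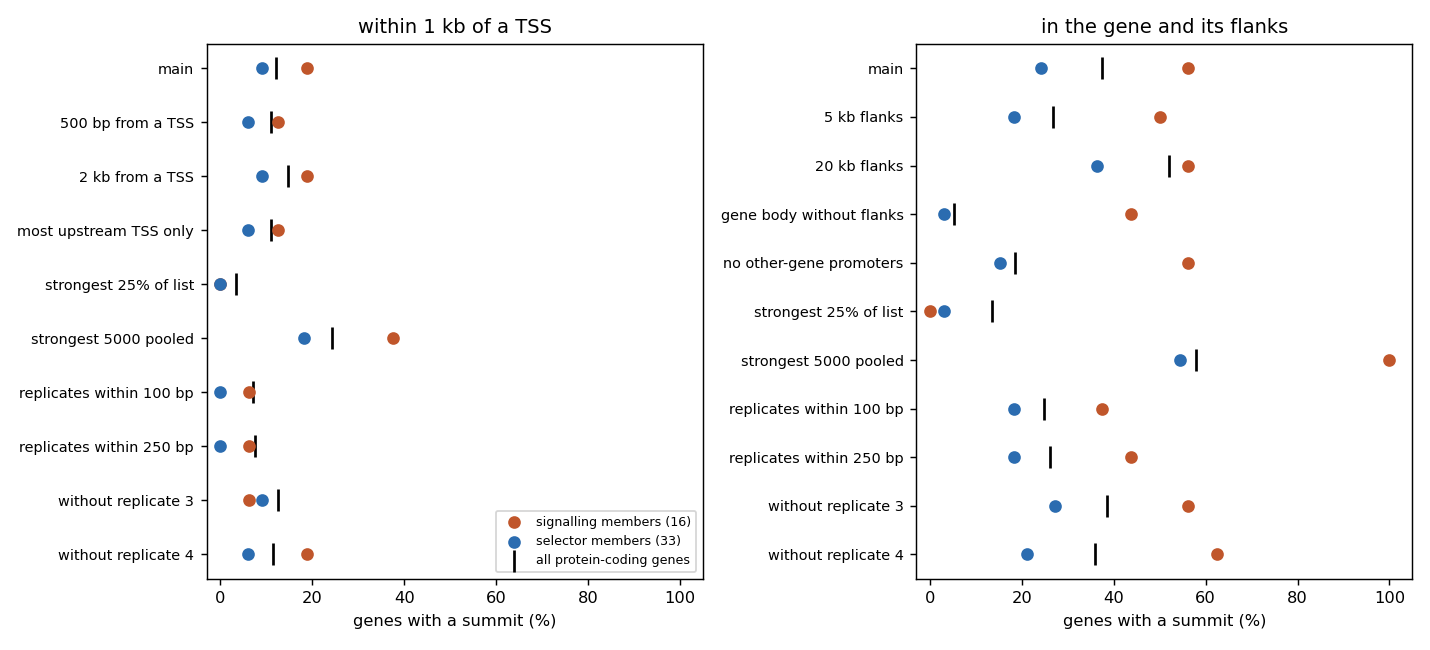
Share of signalling members (orange), selectors (blue) and all protein-coding genes (black ticks) with a summit (x axis, percent) under each setting (y axis), within 1 kb of a TSS (left) and in the gene and its flanks (right). At promoters the order of the classes changes between settings, with 1 of 16 signalling members and 3 of 33 selectors without replicate 3. In the window, signalling members lie above selectors in every row except the strongest 25% of the list, where they are 0 of 16 and 1 of 33.

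Other genes of the same pathways, outside the 49, were counted for comparison. Of 85 further genes of the 5 pathways, 16 had a thresholded promoter summit (18.8%, 11.2 to 28.8), beside the 12.2% of all genes. In the window, 43 of the 85 had one (50.6%), beside 37.4% of all genes. The Notch list held 7 of 16, among them gro (183.0, rank 243), the corepressor gene, numb (149.3, rank 409), the Notch inhibitor gene, and fng (117.9, rank 694), which encodes a glycosyltransferase that modifies Notch. The other 4 were aph-1 and Psn of gamma-secretase, Su(H), the transcription factor of the pathway, and neur, a ubiquitin ligase gene for Notch ligands. The EGFR list held 4 of 19, with Krn (153.0, rank 385), spi (138.0, rank 483), Gap1 (92.5, rank 1086) and Ras85D (91.5, rank 1116). Krn and spi encode EGFR ligands, as vn does, and spi had 4 promoter summits. Replicate 3 had no summit within 100 bp of the strongest promoter summit of spi, aph-1 or Psn.

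The Wnt list held 3 of 21, which were sgg (149.5, rank 407), the kinase gene of the destruction complex, Apc2 (105.2, rank 855) and dlp (93.6, rank 1057), a glypican gene. The BMP list held 2 of 18, babo (88.4, rank 1208), an activin-type receptor gene, and shn (87.0, rank 1243), a zinc finger gene, and the Hedgehog list 0 of 11 (exact upper limit 28.5%, which includes the 12.2% of all genes). The summit of babo had no match in replicate 3, and that of shn ranked 9598 there and 1024 in replicate 4. The summits of Krn, Ras85D, aph-1, Su(H), Psn, Apc2, dlp and babo also lay within 1 kb of a TSS of another gene. Of 38 further transcription factor genes of the discs, among them hth, nub, ey and Ubx, none had a thresholded promoter summit. The exact upper limit for 0 of 38 is 9.25%, beside 12.2% of all genes. In the window, 7 had one (18.4%, beside 37.4% of all genes). These lists were chosen with earlier results of these data known, so their shares are not a test.

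The words searched within 50 bp of each summit, on both strands, were AAGTCA, the core site of the tailless group of receptors to which dsf belongs, AGGTCA, the general nuclear receptor core, TATCGA, part of the DREF-binding element, TATAAA, the TATA box, GAGAGA, the GAGA factor site, and CAGCTG, an E-box. Among the 30 summits near members, AAGTCA and AGGTCA were in none, beside 5.27% and 1.76% of the 1708 thresholded summits of the arms. TATCGA was in 1, that of N (3.33%, beside 10.1%), and CAGCTG in 1, near ap (3.33%, beside 58 of the 1708). TATAAA was in 9 of 30, beside 23.0%, near aos, nkd, dac, N, fz2, ptc and brk. GAGAGA was in 3 of 30, beside 3.34%, near fz, fz2 and vg. At these numbers the counts describe the windows only.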

How the data were processed

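ChIP-seq of the dsf-eGFP fusion was profiled in 2 biological replicates of whole larvae. The 4 dm6 lists were used as deposited, in a 10-column region format. The deposited signal value of each region, never negative, served to rank regions within a list. The significance column deposited by the authors holds −log10 of a q-value, with a smallest thresholded value of 1.78. The sources used here do not name an aligner, peak caller or control normalisation. Lists on dm3 were not used. Summits were placed on genes of Ensembl release 115, whose arm lengths and gene ends fitted the lists. Mitochondrial regions (23 of 1731) counted in ranks only. A gene counted as having a summit when 1 lay within 1 kb of any annotated TSS, inside it, or within 10 kb either side. Replicate regions were matched within 100 bp. Placement was tested on simulated summits at known distances. Genes named were all members with a thresholded summit, those next in pooled rank, those with no pooled promoter region, pathway genes with a promoter summit, and neighbours whose promoters held a member's summit; other members were added for completeness. The members and lists were chosen with earlier results of these data known. Counts inside genes and for genes of 10 kb or longer, and densities, were chosen after the counts in the wider window were seen. Analyses used python 3.11.15, numpy 2.4.6, pandas 2.3.3 and scipy 1.17.1, with figures from matplotlib 3.10.9.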

Additional observations from a re-analysis of the deposited data

How the results depend on the processing

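Promoter counts depended on the list. In the strongest 25% of the thresholded list, 0 members, 0 signalling members and 0 selectors had a promoter summit, against 3.35% of all genes. In the window, 1, 0 and 1 had one, against 13.4% of all genes. With the strongest 5000 pooled regions the counts were 12, 6 and 6 at promoters, against 24.3% of all genes. In the window they were 34, 16 and 18 (69.4%, 100% and 54.5%), against 57.9% of all genes. Requiring a summit within 100 bp, or 250 bp, among the strongest of each replicate left 1, 1 and 0 promoters, the 1 being aos. This was 2.04% of members, against 7.07% or 7.63% of all genes, where the shares were equal without this requirement. The same requirement kept 12 or 13 members in the window (24.5% or 26.5%, against 24.8% or 26.1% of all genes). Without replicate 3 or without replicate 4, the promoter counts ran from 4 to 5 members, 1 to 3 signalling members and 2 to 3 selectors, since sty, nkd and dac were lost and Dll gained without replicate 3, and sd and C15 were lost and brk gained without replicate 4. The window counts ran from 17 to 18, 9 to 10 and 7 to 9. Narrowing the window to the gene left 8 members and 1 selector, against 5.26% of all genes. Leaving out summits only at other genes' promoters left 5 selectors (15.2%), against 18.5% of all genes. Inside genes, counts of members, signalling members and selectors were 0, 0 and 0 in the strongest 25% (1.55% of all genes). They were 4, 4 and 0 with replicate support at either distance (3.35% or 3.53% of all genes). In the strongest 5000 pooled regions they were 19, 13 and 6. There selectors (18.2%) lay above the 12.1% of all genes and not below as in the thresholded list, but that 12.1% was not matched for gene length. Leaving out a replicate gave 9 members, 7 to 8 signalling members and 1 to 2 selectors inside genes. The shares of all genes were 5.49% without replicate 3 and 5.28% without replicate 4. The cause of these shifts was not tested. TSS distances of 500 bp and 2 kb, the most upstream TSS only, and flanks of 5 kb and 20 kb changed no count by more than 1.5 times. The share of all genes did change with the flank. With 20 kb flanks it was 51.9%, beside 56.2% of signalling members and 36.4% of selectors. With 10 kb flanks these shares were 37.4%, 56.2% and 24.2%. No paired analysis was possible because there was 1 group. Depth is unknown, so no limit on undetected binding can be given.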
